A study of Mus musculus with 60 samples.

Results

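The genes described here are 47 genes of DNA replication and of the G1/S transition, chosen by symbol from the known roles of their products. All 47 were found in both expression tables of the series, among 24206 symbols of a first RNA-seq set and 24314 symbols of an etoposide time course. All 47 also reached 1 FPKM in at least 2 libraries of each table, the filter that left 12733 and 14223 genes to test. FPKM divides fragment numbers by transcript length and library size, so levels of different genes can be set side by side. By role the genes fall into 9 groups: 6 of origin licensing, 6 subunits of the MCM helicase, 6 of helicase activation, 6 of polymerases and primase, 6 of the sliding clamp and its loader, 4 of the lagging strand and single-strand binding, 5 of nucleotide supply, 3 of histone supply and chromatin assembly and 5 regulators of the G1/S transition.

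Replication begins at origins, where the origin recognition complex, CDC6 and CDT1 load the ring-shaped MCM helicase onto DNA in G1. CDC45 and the GINS complex then activate the helicase, primase and polymerase alpha lay down primers, and the clamp loader places PCNA, which tethers the polymerases that copy the strands. Most of these genes are transcribed as cells pass into S phase, under E2F factors that cyclin E and its kinase help to release. Mouse embryonic stem (ES) cells have a short G1 phase and hold many of these genes at high levels through much of the cycle, and P53, activated by DNA breaks, halts the cycle and lowers such genes in many cell types.

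All RNA came from mouse ES cells, and the series compares cells with and without Lnc956, a long noncoding RNA, under etoposide, a drug that traps topoisomerase II on cut DNA. The first set holds wild-type (WT) and Lnc956 knockdown cells, each untreated or given 10 uM etoposide for a time that the sources used here do not give. The time course holds 3 altered lines, namely Lnc956 knockout, P53 knockdown and the combination of the losses (combined-loss cells). Each was sampled at 0 h and after 3 h, 6 h and 9 h of etoposide, and WT cells after 6 h and 9 h. The dose is labelled 1 uM, but 4 of the 28 time-course libraries are labelled 10 uM: 1 library each of the knockout cells at 3 h and at 6 h, the P53 knockdown cells at 6 h and the combined-loss cells at 9 h. ChIP-seq peak lists cover P53 in WT and Lnc956 knockdown cells and KLF4 in WT cells, Lnc956 knockout cells, knockout cells given back full-length Lnc956 and knockout cells given Lnc956 without bases 862 to 1253, each untreated or under 10 uM etoposide, which is labelled 3 h for KLF4. Each group has 2 libraries. The labels do not say that these are separate cultures, so a p-value measures the spread between libraries, which may be technical, and the sources used here do not give the number of clones behind a knockout or a knockdown.

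Some libraries stood apart in ways that the labels do not give. In the first set Eif2s3y, a Y-linked gene, was at 2.2 to 2.62 FPKM in the 4 untreated libraries and at 27.5 to 30.3 FPKM in the 4 treated ones. The summed level of 17 fibroblast markers, none of them at 0, was 1569 to 1691 FPKM untreated and 718 to 761 FPKM treated, all 17 fell in both genotypes, and Actb went from 420.4 to 493 FPKM to 671 to 914 FPKM. In the time course Eif2s3y split the knockout cells (0 to 0.308 FPKM at 0 h and 3 h, 1.10 to 1.94 FPKM at 6 h and 9 h) and the P53 knockdown cells (30.7 to 36.2 FPKM, then 3.97 to 5.80 FPKM), with fibroblast sums of 1015 to 1530 FPKM and then 1989 to 2474 FPKM in the latter. Combined-loss libraries held it at 1.30 to 4.27 FPKM throughout and WT libraries at 0, with a fibroblast sum of 299.9 to 358 FPKM in which Postn, Dcn, Lum, Col3a1, S100a4 and Acta2 were at 0 in 1 or more libraries. Treated against untreated cells of the first set, and 6 h or 9 h against 0 h in knockout and P53 knockdown cells, therefore cannot be told apart from these differences between libraries, and their part in each result was not tested. Comparisons of 3 h with 0 h and of 9 h with 6 h lie within a block of like libraries, but P53 knockdown libraries at 0 h and 3 h also split by replicate number. Their fibroblast sums at 0 h and 3 h were 1450 and 1530 FPKM in the first libraries and 1054 and 1015 FPKM in the second. Combined-loss libraries split by replicate number as well, at 6 h and 9 h. Eif2s3y was at 4.25 and 3.835 FPKM in the first libraries of these times and at 1.30 and 1.79 FPKM in the second. These splits add to the spread within those groups. The 8 ES cell markers summed to 3240 to 7762 FPKM over all libraries, and they moved with the groups. In treated against untreated cells 2 were higher and 6 lower in WT (median -0.65) and 1 higher and 5 lower in knockdown cells (median -0.21), and 4 were higher and none lower in treated knockdown against treated WT cells (median 0.35). In the time course Zfp42 was at 27.9 to 40.4 FPKM in knockout and 313 to 635 FPKM in combined-loss libraries. The part of these shifts in the results was not tested. Trp53 was at 183 to 234 FPKM in WT cells of the time course, at 61.8 to 111.5 FPKM in P53 knockdown cells and at 52.5 to 66.2 FPKM in combined-loss cells. The level of Lnc956 was not analysed here, and the 8 columns of combined-loss cells were matched to their genotype by elimination.

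Over the 4 groups of the first set most of the 47 genes kept a narrow range. The ratio of the highest to the lowest group mean had a median of 1.29, and 36 genes stayed under 1.5. Only Mcm2 at 3.53, Pola1 at 2.82 and E2f8 at 2.41 went over 2. The libraries of a group differed by a median of 3.75% per gene. In the time course the median ratio was 2.06 over 14 groups, 26 genes went over 2 and no gene stayed under 1.5, with a median gap of 7.44% between the libraries of a group. The widest were Pola1 at 7.11, Ccne2 at 6.77, E2f2 at 4.49, Rfc1 at 3.67, Rrm2 at 3.18 and Ccne1 at 3.15.

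Under 10 uM etoposide more of these genes were higher than lower in both genotypes of the first set. In WT cells 26 of 47 were higher and 9 lower in limma with Benjamini-Hochberg adjustment over all genes tested (threshold 0.05), where 39.3% of all genes tested were higher and 37.6% lower. In knockdown cells 21 were higher and 7 lower, where 31.5% and 37.1% of all genes were. The median log2 difference of the 47 was 0.21 in WT cells and 0.12 in knockdown cells, beside 0.008 and -0.038 for all genes tested. With quantile scaling between libraries the counts became 24 higher and 14 lower in WT cells and 18 higher and 14 lower in knockdown cells. All differences below are on the scale of log2(FPKM + 1), the first group named minus the second, with the standard error (SE) of the fit. In bulk RNA a lower level in each cell and fewer cells in the phase that uses a gene cannot be told apart.

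**Figure D1:**
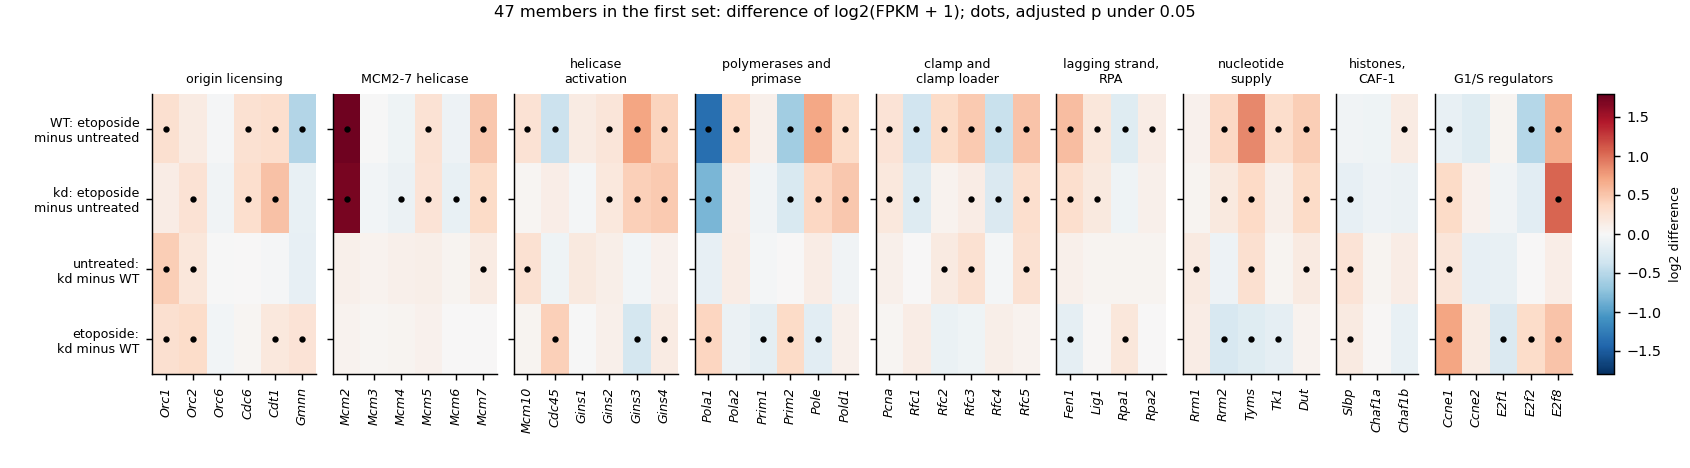
The log2 differences of all 47 genes, grouped by role along the horizontal axis, with a row for each comparison. From the top these are treated against untreated in WT and in Lnc956 knockdown cells, then knockdown against WT untreated and treated. A dot marks an adjusted p under 0.05. The first row holds 26 genes called higher and 9 called lower, and the untreated genotype row holds 12 called higher and none called lower.

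Among the genes of origin licensing, 3 of 6 were higher and 1 lower in treated WT cells, and 3 of 6 higher and none lower in treated knockdown cells. Cdt1, the factor that brings the helicase to the origin, was at 73.3 and 74.1 FPKM in untreated and 96.7 and 85.8 FPKM in treated WT libraries, and at 72.5 and 72.1 FPKM against 102 and 107 FPKM in knockdown libraries. Treated and untreated libraries did not overlap in either genotype, and the difference was 0.30 ± 0.06, adjusted p = 0.00119 in WT and 0.53 ± 0.06, adjusted p = 5.33e-05 in knockdown cells. Cdc6, the loading ATPase, was a small step higher in both (0.27 ± 0.05, adjusted p = 0.00126, and 0.30 ± 0.05, adjusted p = 0.000873), from 11.4 and 12 FPKM to 14.3 and 14.4 FPKM in WT libraries. Gmnn, which encodes the CDT1 inhibitor geminin, was lower in treated WT cells, at 118 and 109.7 FPKM untreated and 79.1 and 77.9 FPKM treated (-0.53 ± 0.05, adjusted p = 1.53e-05). In knockdown cells it was at 103 and 102 FPKM untreated and 90.2 and 97.5 FPKM treated and did not pass (-0.13 ± 0.05, adjusted p = 0.0523), but without the second treated library it passed at -0.18 (adjusted p = 0.0229). Orc1, the largest subunit of the recognition complex, stood at 17.0 and 16.7 FPKM and 20.7 and 20.8 FPKM in WT libraries, all treated ones above all untreated ones (0.29 ± 0.06, adjusted p = 0.00157).

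Mcm2 had the largest rise of all 47 genes in both genotypes. This subunit of the helicase, which also binds histones, was at 112 and 114 FPKM in untreated WT libraries and at 392 and 375 FPKM in treated ones. Knockdown libraries were at 119.6 and 123 FPKM and 404 and 395 FPKM. The difference was 1.75 ± 0.04, adjusted p = 1.23e-08 in WT cells and 1.71 ± 0.04, adjusted p = 1.84e-08 in knockdown cells, while over the 6 subunits the median was 0.12 in WT and 0.095 in knockdown cells. Mcm7 rose less, from 133 and 132 FPKM to 191 and 181 FPKM in WT libraries (0.49 ± 0.05, adjusted p = 1.18e-05), and Mcm5 rose by 0.26 ± 0.04. Mcm3 was at 109.5 and 109 FPKM untreated and 111 and 106 FPKM treated, with overlapping libraries. In treated knockdown cells Mcm4 (-0.11 ± 0.04, adjusted p = 0.0446) and Mcm6 (-0.13 ± 0.05, adjusted p = 0.0453) were called lower by small amounts. The call of Mcm4 was lost without any 1 of the 4 libraries (adjusted p from 0.0545 to 0.217), and that of Mcm6 without either untreated or the first treated library (0.12 to 0.264).

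The sequences upstream of these subunits were compared because E2F factors have sites near the starts of replication genes. No P53 word was searched in them. The 250 bases before the start are shown 5′ to 3′ on the strand of the gene, from RefSeq on GRCm38.p6, in lower case with matches to an E2F word in capitals. Mcm2 lies on chr6:88898781-88899030, minus strand, Mcm5 on chr8:75109259-75109508, plus strand, Mcm6 on chr1:128359706-128359955, minus strand, and Mcm7 on chr5:138171884-138172133, minus strand. Mcm2 is shown for its rise, and was added after its values were seen.
Mcm2: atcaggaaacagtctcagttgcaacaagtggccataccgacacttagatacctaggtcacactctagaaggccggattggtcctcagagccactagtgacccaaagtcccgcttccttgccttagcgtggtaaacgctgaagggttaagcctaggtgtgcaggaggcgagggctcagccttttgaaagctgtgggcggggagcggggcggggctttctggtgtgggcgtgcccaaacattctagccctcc
Mcm5: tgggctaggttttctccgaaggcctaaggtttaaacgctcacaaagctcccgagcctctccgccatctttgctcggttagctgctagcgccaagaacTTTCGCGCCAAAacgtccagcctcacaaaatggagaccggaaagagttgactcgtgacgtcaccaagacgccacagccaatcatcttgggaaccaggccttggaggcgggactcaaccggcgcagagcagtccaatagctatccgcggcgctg
Mcm6: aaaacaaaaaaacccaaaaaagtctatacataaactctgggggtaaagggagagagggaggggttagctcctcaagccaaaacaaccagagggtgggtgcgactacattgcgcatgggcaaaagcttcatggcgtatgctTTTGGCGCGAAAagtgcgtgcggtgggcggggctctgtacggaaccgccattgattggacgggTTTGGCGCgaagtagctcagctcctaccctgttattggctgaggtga
Mcm7: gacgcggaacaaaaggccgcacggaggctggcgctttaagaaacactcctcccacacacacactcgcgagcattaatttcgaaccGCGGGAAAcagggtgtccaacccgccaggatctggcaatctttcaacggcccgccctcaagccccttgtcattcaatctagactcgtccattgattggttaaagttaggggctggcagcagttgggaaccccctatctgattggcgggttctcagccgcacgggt

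The words searched were TTTCCCGC, TTTCGCGC, TTTGCCGC and TTTGGCGC on both strands, and matches may overlap. In Mcm5 a pair of overlapping matches ran from 153 to 142 bases before the start. In Mcm6 a pair ran from 110 to 99 bases and a further match from 47 to 40 bases before the start, and the match of Mcm7 ran from 165 to 158 bases before it. The 250 bases of Mcm2 held none. Mcm3 is not shown because its matches lie past the start. A promoter of 300 bases was found in RefSeq for 38 of the 47 genes, and 13 of these (34.2%) held an E2F word, against 704 of 27025 genes (2.6%). The 13 were Cdc6, Cdt1, E2f2, Gins3, Lig1, Mcm3, Mcm5, Mcm6, Mcm7, Orc1, Pola1, Pold1 and Rfc3. A gene was counted if the promoter of any of its starts held a word. For Mcm7 the promoter of the start shown held 2 matches over its 300 bases, and that of another start held none. The GC box GGGCGG was found in 29 of 38 (76.3%, against 38.2% of genes), CCAAT in 24 (63.2% against 41.1%) and TTTGAA in 6 (15.8% against 20.2%), each searched on both strands. In treated WT cells the 13 genes with an E2F word had a median difference of 0.27, from -1.35 to 0.71, and the 25 without one had 0.14, from -0.41 to 1.75. The order was the same in treated knockdown cells (0.17 and 0.10) and in knockout cells at 9 h against 0 h (-0.31 and -0.35). It turned at 9 h against 0 h in P53 knockdown (-0.19 and 0.059) and combined-loss cells (0.056 and 0.17). In WT cells at 9 h against 6 h it turned too (0.012 and 0.23). No difference between these medians was tested. The shares given for genes cover all 27025 with a promoter, tested or not, while the 47 were all tested. No share among tested genes alone was taken, so the excess over all genes may not be particular to the 47. These are matches of letters in a window and show no binding.

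Of the 6 genes that activate the helicase, 4 were higher and 1 lower in treated WT cells, and 3 were higher in treated knockdown cells. Gins3, a subunit of GINS, rose from 9.99 and 9.88 FPKM to 16.9 and 16.9 FPKM in WT libraries (0.71 ± 0.08, adjusted p = 4.35e-05) and from 8.76 and 10.5 FPKM to 13.9 and 12.7 FPKM in knockdown libraries (0.43 ± 0.08, adjusted p = 0.00135). Cdc45, the partner of MCM and GINS in the active helicase, fell in WT cells. It was at 30.3 and 30.4 FPKM untreated and 23.7 and 22.1 FPKM treated in WT libraries (-0.39 ± 0.07, adjusted p = 0.00066), and at 28.6 and 28.9 FPKM and 33.6 and 29.1 FPKM in knockdown libraries (0.12 ± 0.07, adjusted p = 0.155), where it passed as a rise of 0.22 without the second treated library (adjusted p = 0.0157).

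The polymerase and primase genes were the most divided group, with 3 of 6 higher and 2 lower in treated WT cells and 2 higher and 2 lower in knockdown cells. Pola1, the catalytic subunit of polymerase alpha, fell from 16.8 and 16.9 FPKM to 5.77 and 6.18 FPKM in WT libraries (-1.35 ± 0.07, adjusted p = 2.44e-07). In knockdown libraries it fell from 15 and 15.2 FPKM to 7.66 and 8.58 FPKM (-0.83 ± 0.07, adjusted p = 7.53e-06), the largest fall among the 47 genes in both genotypes. Prim2, the regulatory subunit of primase, fell from 31.6 and 31.8 FPKM to 19.3 and 21.2 FPKM in WT libraries (-0.62 ± 0.06, adjusted p = 1.56e-05) and by a difference of -0.28 ± 0.06 in knockdown libraries. Their partners in the same complex did otherwise: Pola2 rose in WT cells (0.36 ± 0.05, adjusted p = 0.000147), and Prim1, the catalytic primase subunit, was not called in either (0.085 and -0.06). Pole, of the leading-strand polymerase, and Pold1, of the lagging-strand polymerase, were higher in both genotypes, by 0.70 ± 0.06 and 0.33 ± 0.05 in WT cells.

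**Figure D2:**
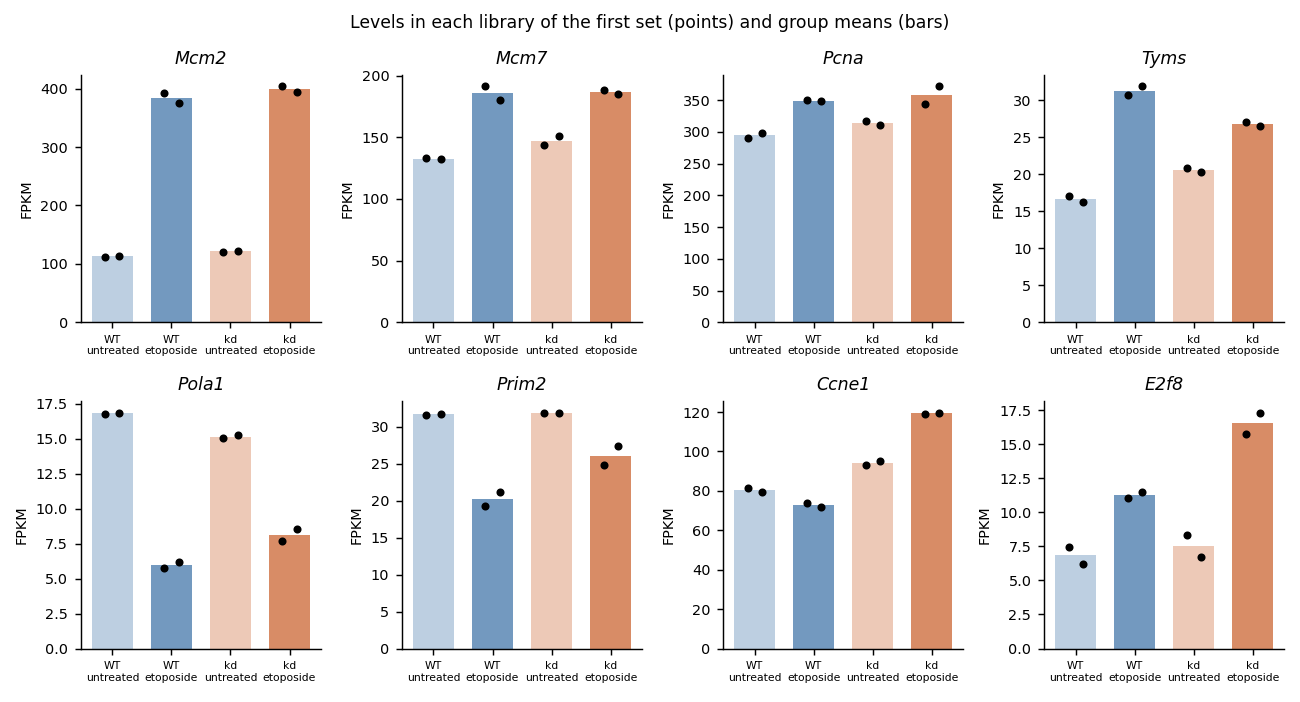
FPKM of 8 genes in the first set, with a bar for the mean of each group and a point for each of its 2 libraries. Mcm2 stands at 375 to 404 FPKM in the 4 treated libraries and at 112 to 123 FPKM in the 4 untreated ones, and Ccne1 is highest in treated knockdown libraries.

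Pola1 and Prim2 are also the genes with the longest spans. Pola1 spans 327.6 kb, Prim2 216.0 kb and Rfc1, the large subunit of the clamp loader, 76.8 kb, and no other of the 47 spans over 60 kb. The median difference of these 3 genes was -0.62 in treated WT cells, and of the 2533 tested genes over 60 kb it was -0.36, with 72.8% of them below 0. In knockdown cells the medians were -0.28 for the 3 genes and -0.28 for all genes over 60 kb. Spearman's rho between span and difference was -0.30 over the 47 genes and -0.28 over all genes in WT cells, and -0.33 and -0.24 in knockdown cells, where all genes share the same libraries. The limits of 20 kb and 60 kb were chosen after the data were seen, and these values are a description with no test.

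**Figure D3:**
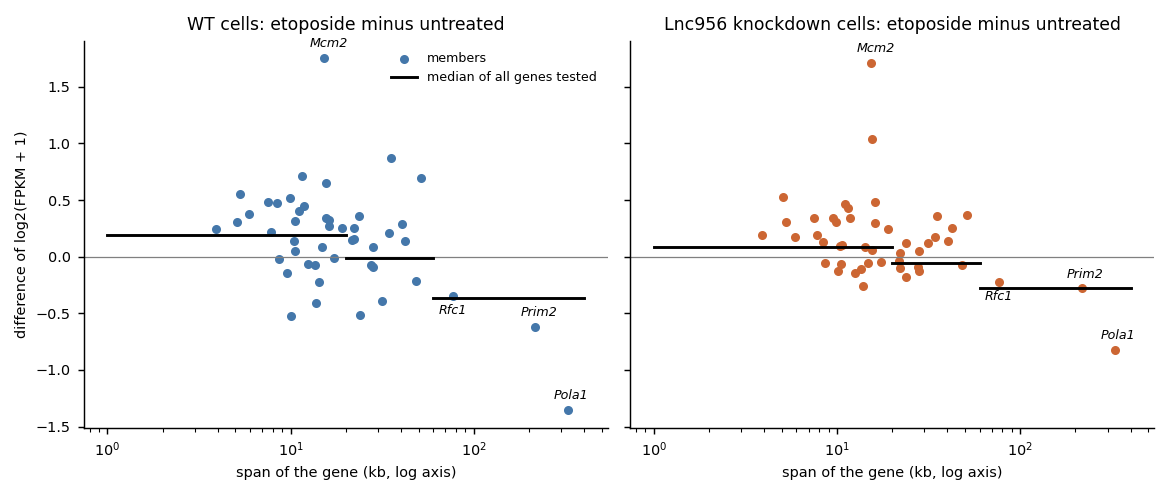
The log2 difference of treated minus untreated cells against gene span in kb on a log axis, for the 47 genes (points) and for the median of all genes tested in 3 bins of span (black), in WT and knockdown cells. The 3 genes over 60 kb lie below 0 in both panels, as does the median of all genes in that bin.

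Of the 6 clamp and clamp loader genes, 4 were higher and 2 lower in treated WT cells, and 3 were higher and 2 lower in knockdown cells. Pcna, the clamp, rose from 291 and 298 FPKM to 349 and 348 FPKM in WT libraries (0.24 ± 0.05, adjusted p = 0.00126) and from 317 and 310.2 FPKM to 344 and 372 FPKM in knockdown libraries (0.19 ± 0.05, adjusted p = 0.00637). The small loader subunits did not move together, since Rfc5 (0.52 ± 0.05), Rfc3 (0.47 ± 0.05) and Rfc2 (0.34 ± 0.05) were higher in WT cells and Rfc4 was lower (-0.41 ± 0.04, adjusted p = 2.14e-05). Rfc4 and Rfc1 were lower in knockdown cells too (-0.26 ± 0.04 and -0.23 ± 0.05). On the lagging strand, Fen1, the nuclease that trims primers, rose by 0.56 ± 0.04 in WT and 0.30 ± 0.04 in knockdown cells. Lig1, which seals the fragments, rose by 0.21 ± 0.04 in WT cells. Rpa1, the large subunit of the single-strand binding protein, fell in WT cells (-0.22 ± 0.04, adjusted p = 0.00109).

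Nucleotide supply held no gene that fell in either genotype, with 4 of 5 higher in WT and 3 of 5 higher in knockdown cells. Tyms, which makes thymidylate, was at 17.1 and 16.2 FPKM in untreated and 30.7 and 31.9 FPKM in treated WT libraries (0.87 ± 0.05, adjusted p = 5.9e-07). In knockdown libraries it was at 20.9 and 20.3 FPKM and 27.1 and 26.5 FPKM (0.36 ± 0.05, adjusted p = 0.000206), a smaller step from a higher start. Rrm2, the small subunit of ribonucleotide reductase, rose from 119.8 and 119 FPKM to 153 and 157 FPKM in WT libraries (0.37 ± 0.04, adjusted p = 2.74e-05), and Dut, which removes dUTP, rose by 0.45 ± 0.05. Of the 3 genes of histone supply and chromatin assembly, 1 was called higher in WT and 1 lower in knockdown cells. The first was Chaf1b, a subunit of chromatin assembly factor 1 (0.15 ± 0.06, adjusted p = 0.0312), whose call was lost without the first untreated (adjusted p = 0.213) or the first treated WT library (0.151) and with quantile scaling (0.198). The other was Slbp, which binds the end of histone messages (-0.15 ± 0.05, adjusted p = 0.0221), and its call was lost without the first untreated (adjusted p = 0.156) or the first treated knockdown library (adjusted p = 0.114). Slbp in WT cells was at 64.3 and 66.5 FPKM untreated and 62.6 and 62.4 FPKM treated (-0.065 ± 0.05, adjusted p = 0.242), which passed with quantile scaling (-0.12, adjusted p = 0.0345).

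Of the 5 G1/S regulators, 1 was higher and 2 lower in treated WT cells, and 2 were higher and none lower in treated knockdown cells. Ccne1, which encodes cyclin E1, was at 81.3 and 79.4 FPKM in untreated WT libraries and lower, at 73.9 and 71.8 FPKM, in treated ones (-0.14 ± 0.04, adjusted p = 0.0106). That call was lost without the first untreated (adjusted p = 0.0628) or the second treated WT library (adjusted p = 0.0558). In knockdown libraries it was higher under treatment, at 92.9 and 95.2 FPKM and then 119 and 119.7 FPKM (0.34 ± 0.04, adjusted p = 8.12e-05). E2f8, a repressor among the E2F factors, rose in both, from 7.49 and 6.21 FPKM to 11.1 and 11.5 FPKM in WT libraries (0.65 ± 0.11, adjusted p = 0.000414) and from 8.32 and 6.75 FPKM to 15.7 and 17.3 FPKM in knockdown libraries (1.04 ± 0.11, adjusted p = 3.1e-05). E2f2, an activator, fell in WT cells (-0.52 ± 0.08, adjusted p = 0.000403). In treated WT cells the wider pathway did not lean the way of the 47 genes. Of 37 further replication genes 11 were higher and 16 lower, and of 28 further genes of the G1/S control 8 were higher and 15 lower. Beside these lists, 17 genes of G2 and mitosis had 5 higher and 10 lower in WT cells and 11 higher and 2 lower in knockdown cells. Of all genes tested 39.3% were higher and 37.6% lower in WT cells, and 31.5% and 37.1% in knockdown cells.

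Without etoposide the genotypes differed in fewer of these genes and in 1 direction. In knockdown cells 12 of 47 were higher and none lower, where 15.3% of all genes tested were higher and 8.48% lower. The count was 7 with the replicate number as a block, 7 without the filter on low values, and 3 to 9 with a library left out, namely 3 without the first knockdown library, 5 without the first WT library and 6 without the second. Quantile scaling gave 7 higher and 1 lower. Orc1 had the largest difference, at 24.4 and 22.0 FPKM in knockdown against 17.0 and 16.7 FPKM in WT libraries (0.44 ± 0.06, adjusted p = 0.00196). Tyms followed (0.29 ± 0.05, adjusted p = 0.00543), then Rfc5 (0.28 ± 0.05, adjusted p = 0.00695), Slbp (0.24 ± 0.05, adjusted p = 0.00893) and Ccne1 (0.22 ± 0.04, adjusted p = 0.0063), while Mcm2 (0.10 ± 0.04, adjusted p = 0.124), Pcna (0.091 ± 0.05, adjusted p = 0.196) and Cdc6 (0.012 ± 0.05, adjusted p = 0.899) did not pass. Without the first knockdown library the calls of Rfc5 (adjusted p = 0.0545) and Slbp (0.0763) were lost, and that of Slbp also without the first WT library (0.0639).

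Under etoposide 13 of the 47 genes were higher and 8 lower in knockdown than in WT cells, where 22.7% and 22.9% of all genes tested were. The largest difference was in Ccne1 (0.70 ± 0.04, adjusted p = 3.74e-06), followed by E2f8 (0.51 ± 0.11, adjusted p = 0.00403) and Cdc45 (0.43 ± 0.07, adjusted p = 0.000936). Licensing genes had 4 of 6 higher and none lower, namely Orc2 (0.32), Orc1 (0.29), Gmnn (0.25) and Cdt1 (0.20). Pola1 (0.39) and Prim2 (0.35) were higher as well, and no MCM or clamp gene was called. On the lower side stood Gins3 (-0.32 ± 0.08, adjusted p = 0.0114), Rrm2 (-0.29 ± 0.04, adjusted p = 0.000441) and E2f1 (-0.25 ± 0.06, adjusted p = 0.00617), and 3 of 5 genes of nucleotide supply were lower with none higher. Mcm2 (0.06 ± 0.04, adjusted p = 0.282) and Pcna (0.036 ± 0.05, adjusted p = 0.57) did not pass. The call of Gins3 was lost without the second knockdown library (adjusted p = 0.0765) and that of Cdt1 without the second library of either genotype (0.126 for knockdown, 0.137 for WT). None of the 47 was in the authors' deposited table of 1007 genes for this comparison. Of 37 further replication genes 11 were higher and 5 lower, and of 28 further genes of the G1/S control also 11 and 5. Dbf4, which activates the CDC7 kinase at origins, was higher (0.91 ± 0.05, adjusted p = 2.95e-06), as was Mybl2, a partner of the G1/S and G2/M programme (0.89 ± 0.04, adjusted p = 1.84e-06). On the lower side stood Fbxw7, which marks cyclin E for degradation (-0.97 ± 0.07, adjusted p = 8.89e-06), Rb1, the retinoblastoma protein that restrains E2F factors (-0.93 ± 0.08, adjusted p = 2.22e-05), and the helicase gene Recql4 (-0.50 ± 0.06, adjusted p = 0.000181). Of the 17 genes of G2 and mitosis 12 were higher and 1 lower in the same comparison, and the part of cell cycle phase in these values was not tested.

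The response to etoposide differed between the genotypes for 14 of the 47 genes when the difference itself was tested as an interaction in limma, 5 higher and 9 lower in knockdown cells, where 13.6% and 19.5% of all genes tested were. Leaving out 1 library gave 8 to 13, namely 8 without the first untreated WT library and 9 without the first treated knockdown library. Pola1 fell less in knockdown cells (0.53 ± 0.09, adjusted p = 0.00325), Cdc45 was lower by its call in WT cells only (0.51 ± 0.10, adjusted p = 0.0045) and Ccne1 was called lower in WT and higher in knockdown cells (0.48 ± 0.06, adjusted p = 0.000442). Tyms (-0.51 ± 0.07, adjusted p = 0.00102), Rfc3 (-0.34 ± 0.07, adjusted p = 0.00742) and Pole (-0.32 ± 0.08, adjusted p = 0.0142) rose more in WT cells, though the call of Pole was lost without the first untreated library of knockdown (adjusted p = 0.0512) or WT cells (0.0528). For Mcm2 the interaction was -0.038 ± 0.06, adjusted p = 0.662, and it did not pass for Pcna (-0.055), Cdc6 (0.03) or Slbp (-0.082).

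The time course was normalised apart from the first set, so its levels were compared only among its own libraries. At 3 h few of the 47 genes passed. In knockout cells 0 of 47 genes were called at 3 h against 0 h in limma, where 0.345% of all genes tested were higher and 0.105% lower, and 5 of the 47 had an unadjusted p under 0.05, as did 8.66% of all genes. In combined-loss cells 0 were called, where 0% and 0% of all genes were, and 3 had an unadjusted p under 0.05, as did 3.19% of all genes. In P53 knockdown cells the 1 gene called was Rrm2, higher at 88.6 and 107 FPKM against 70.0 and 78.1 FPKM (0.39 ± 0.09, adjusted p = 0.0114), where 2.85% and 2.33% of all genes were called. That count was 0 without the first library at 0 h (adjusted p of Rrm2 0.0909) or the second at 3 h (0.12), 4 without the second at 0 h and 3 without the first at 3 h. With quantile scaling it was 6, all higher. Same-numbered libraries of these cells at 0 h and 3 h deviated together (r = 0.51 over all genes tested), and with the number as a block over these 4 libraries, added after the data were seen, 4 genes were called, all higher.

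In Lnc956 knockout cells the 47 genes were mostly lower at the later times. At 6 h 9 were higher and 21 lower than at 0 h, where 29.7% and 21.1% of all genes tested were, and at 9 h 8 were higher and 22 lower, where 43.2% and 20.4% were. The median difference at 9 h was -0.23 for the 47 and 0.27 for all genes. Quantile scaling moved the median of all genes by -0.27 and gave 15 higher and 23 lower at 9 h and 13 higher and 16 lower at 6 h. These steps cross the blocks of libraries described above. Trp53 also differed between the blocks, at 279.7 to 301 FPKM at 0 h and 3 h and 177 to 249 FPKM at 6 h and 9 h, as did the summed level of the 17 genes of G2 and mitosis, at 1603 to 1731 FPKM and then 749 to 1174 FPKM.

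By role, 5 of the 6 MCM subunits were lower at 9 h than at 0 h in knockout cells and Mcm4 was higher (0.56 ± 0.09, adjusted p = 2.48e-05). Mcm3 was at 182 and 177 FPKM at 0 h, 177 and 179 FPKM at 3 h, 123 and 118 FPKM at 6 h and 86.3 and 92.4 FPKM at 9 h (-1.0 ± 0.11, adjusted p = 3.92e-07). Mcm2 was at 178 and 164 FPKM, 166 and 163 FPKM, 132 and 134 FPKM and 91.1 and 94.4 FPKM at the 4 times (-0.87 ± 0.10, adjusted p = 5.21e-07), opposite in direction to its rise in the first set. Rpa1 had the largest fall (-1.33 ± 0.10, adjusted p = 1.41e-09), from 152 and 149 FPKM to 57.7 and 60.7 FPKM. The cyclins E parted: Ccne1 fell from 152 and 141 FPKM to 62.1 and 60.1 FPKM (-1.25 ± 0.11, adjusted p = 1.46e-08), and Ccne2 rose from 1.6 and 0.884 FPKM to 6.01 and 5.87 FPKM (1.65 ± 0.17, adjusted p = 9.64e-08). Rfc1 rose from 7.69 and 10.8 FPKM to 21.7 and 19.4 FPKM (1.09 ± 0.19, adjusted p = 7.39e-05), and Prim2 fell (-1.22 ± 0.13, adjusted p = 1.68e-07). Pcna did not pass (-0.044 ± 0.13, adjusted p = 0.777), nor did Cdc6 (-0.058) or Slbp (0.22). With quantile scaling Pcna was called higher (0.21, adjusted p = 0.00881), as was Slbp (0.44, adjusted p = 0.0164).

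Between 6 h and 9 h, which lie in 1 block of libraries, 5 genes were higher and 9 lower at 9 h in knockout cells, where 21.9% and 7.26% of all genes tested were. Pola1 was at 1.5 and 2.06 FPKM at 0 h and 1.97 and 2.48 FPKM at 3 h, stood at 9.40 and 9.23 FPKM at 6 h and was at 3.21 and 2.18 FPKM at 9 h (-1.5 ± 0.27, adjusted p = 0.000391). Only the 6 h libraries were high, and 1 of that pair is labelled 10 uM. Mcm2 (-0.52 ± 0.10, adjusted p = 0.000884), Mcm3 (-0.43 ± 0.11, adjusted p = 0.0084), Mcm5 (-0.41 ± 0.09, adjusted p = 0.00293) and Mcm7 (-0.41 ± 0.10, adjusted p = 0.00333) were lower, and Prim1 was higher (0.51 ± 0.12, adjusted p = 0.00286). The 14 calls became 8 without either 6 h library or the second 9 h library, 6 without the first 9 h library, and 4 without the libraries labelled 10 uM, where Mcm3, Mcm5 and Mcm7 no longer passed (adjusted p from 0.0616 to 0.097). Mcm3 was also lost without the first 9 h library (0.0712), and Prim1 without the second 6 h library (0.0568).

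In P53 knockdown cells the 47 genes divided about evenly. At 6 h 12 were higher and 9 lower than at 0 h, where 29.2% and 18% of all genes tested were, and at 9 h 16 were higher and 14 lower, where 39.3% and 20.9% were. The median at 9 h was 0.015 for the 47 and 0.20 for all genes, which quantile scaling moved by -0.18. Of the 6 clamp and clamp loader genes 4 were higher and 1 lower at 9 h, and of the 4 lagging-strand and single-strand binding genes 2 were higher and 2 lower. The higher ones included Fen1 (0.89 ± 0.11, adjusted p = 1.29e-06), Rfc4 (0.75 ± 0.17, adjusted p = 0.000814) and Pcna, which went from 295 and 348 FPKM to 522 and 494 FPKM (0.66 ± 0.13, adjusted p = 0.000193). The lower ones were Rfc1 (-0.62 ± 0.19), which was lost without the second 9 h library (adjusted p = 0.0561), Rpa1 (-0.48 ± 0.10) and Lig1 (-0.41 ± 0.09). Pola1 went from 7.25 and 8.61 FPKM at 0 h to 4.53 and 5.35 FPKM at 3 h, 2.23 and 2.15 FPKM at 6 h and 2.21 and 2.05 FPKM at 9 h, and the change to 9 h was -1.51 ± 0.27, adjusted p = 8.97e-05. Orc2 (-1.01 ± 0.11, adjusted p = 1.69e-07), E2f8 (-0.96 ± 0.14, adjusted p = 7.07e-06) and Mcm2 (-0.89 ± 0.10, adjusted p = 5.47e-07) were lower. Ccne1 was at 85.4 and 74.3 FPKM and 74.7 and 68.2 FPKM (-0.16 ± 0.11, adjusted p = 0.236) and passed only with quantile scaling (-0.23, adjusted p = 0.0335). From 6 h to 9 h 1 gene was higher, Rfc2 (0.44 ± 0.12, adjusted p = 0.0287), and 3 were lower, E2f8, Mcm4 and Chaf1a, where 5.62% and 2.52% of all genes were called. With quantile scaling the last comparison had 1 higher and 11 lower, and with a library of it left out it had 0 calls (without the first of either time) or 1 (without the second of either).

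**Figure D4:**
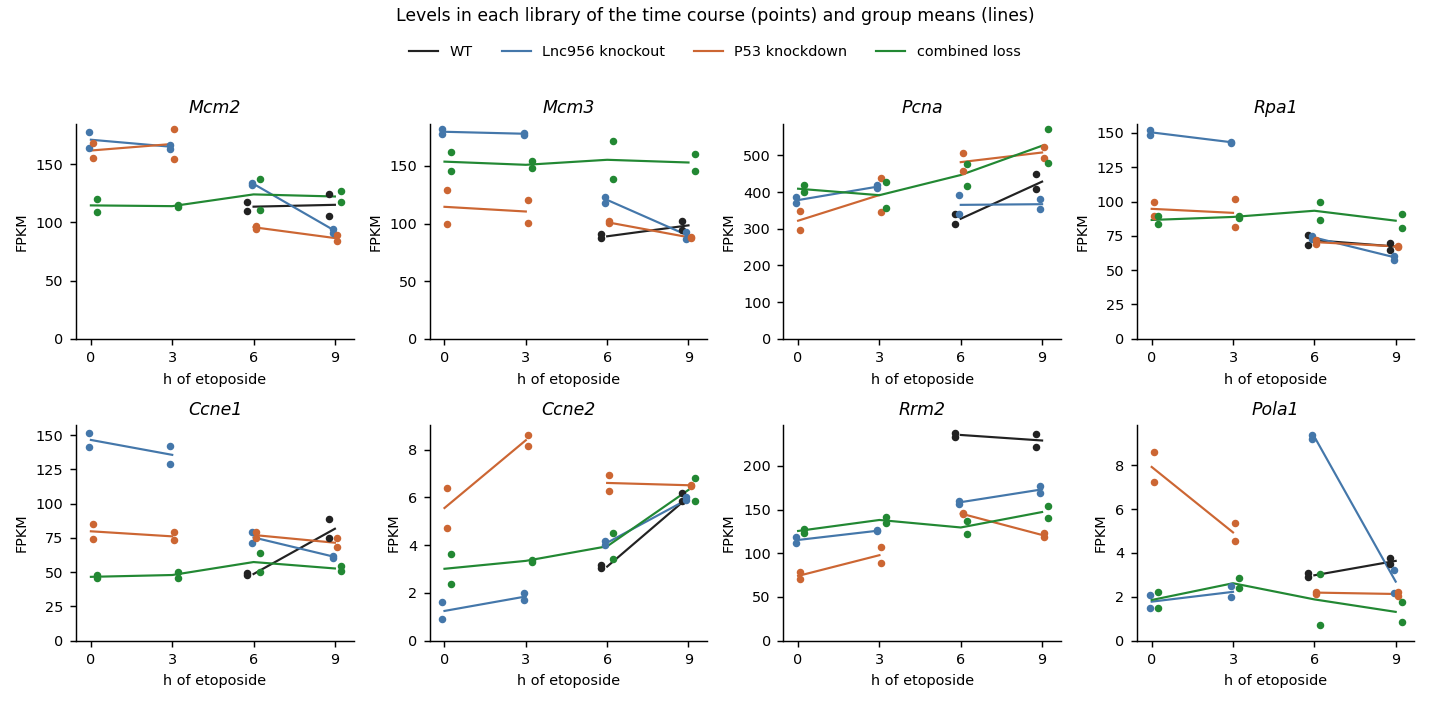
FPKM of 8 genes by hours of etoposide in the 4 lines of the time course, with a point for each library and lines between group means only within blocks of like libraries. Pola1 stands out at 6 h in knockout cells, at 9.23 and 9.40 FPKM, and Ccne1 is high in knockout cells at 0 h and 3 h, from 129 to 152 FPKM.

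Combined-loss cells had the fewest calls at 6 h and 9 h against 0 h among the altered lines. In the single losses these steps cross the blocks of libraries, so this ranking cannot be told apart from the blocks. At 3 h, within a block, knockout cells had 0 calls as well. At 6 h against 0 h 1 gene was higher, Pola2 (0.43 ± 0.11, adjusted p = 0.0362), and none lower, where 2.13% and 0.478% of all genes tested were, and 7 of the 47 had an unadjusted p under 0.05, as did 15.9% of all genes. At 9 h 4 were higher and none lower, where 2.43% and 3.2% were. These were Ccne2, at 2.38 and 3.63 FPKM and then 5.83 and 6.79 FPKM (0.88 ± 0.17, adjusted p = 0.0027), Cdc6, at 15.1 and 11.8 FPKM and then 20.9 and 23.2 FPKM (0.68 ± 0.12, adjusted p = 0.00103), Rfc3 (0.56 ± 0.13, adjusted p = 0.0113) and Fen1 (0.48 ± 0.11, adjusted p = 0.0106). Mcm2 was at 120.1 and 109 FPKM at 0 h and 118 and 127 FPKM at 9 h (0.093 ± 0.10, adjusted p = 0.71), and Ccne1 (0.17), Pcna (0.36) and Slbp (0.43) did not pass either. From 6 h to 9 h 6 genes were higher and 1 lower, where 4.26% and 7.33% of all genes were, with Cdc6 first (0.60 ± 0.12, adjusted p = 0.00227) and Chaf1a the lower one (-0.47 ± 0.11, adjusted p = 0.00742). The 4 calls at 9 h became 0 without the libraries labelled 10 uM, 2 without the second library at 0 h and 1 without the second at 9 h. Cdc6 passed whichever single library was left out, Ccne2 was lost without the first library at 0 h (adjusted p = 0.0734) or the second at 9 h (0.0524), and Rfc3 and Fen1 were lost without the second at either time (0.119 to 0.159). The 1 call at 6 h became 3 without the first library at 6 h and 0 without any other. The 7 calls from 6 h to 9 h became 3 without the first library at 6 h, 4 without the first at 9 h and 2 without the second, and Chaf1a was lost without the second at 6 h (0.0963) or the first at 9 h (0.0821). Quantile scaling gave 1 higher and 1 lower at 6 h and 6 higher and 1 lower at 9 h. Around the 47 genes, Cdkn1a, the P53 target that inhibits cyclin kinases, rose in these cells at 9 h, at 129 and 116.8 FPKM at 0 h and 341 and 355 FPKM at 9 h (1.5 ± 0.10, adjusted p = 2.53e-08). At 3 h and 6 h it was not called (-0.16 and 0.024). Cdkn1a was also higher at 9 h in the single losses, where the times lie in different blocks. P53 knockdown libraries were at 102.5 and 78.35 FPKM at 0 h and 193.1 and 190.8 FPKM at 9 h. Knockout libraries were at 120.2 and 119.6 FPKM at 0 h and 170.7 and 181.6 FPKM at 9 h. At 3 h, in the same block as 0 h, P53 knockdown libraries were at 165.2 and 180 FPKM and knockout libraries at 183.7 and 188.8 FPKM. WT libraries were at 139.8 and 133.6 FPKM at 6 h and 116.7 and 110 FPKM at 9 h.

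Pola1 at 6 h in combined-loss cells was at 3.03 and 0.725 FPKM, the widest gap between the libraries of a group for any of the 47. Rfc1, also a long gene, was at 26.1 and 14.5 FPKM in the same libraries, so the second was the lower one for both. In P53 knockdown cells at 9 h the 3 genes over 60 kb had a median of -0.87 and all tested genes over 60 kb -0.25. In combined-loss cells at 9 h these values were -0.20 and -0.098. In knockout cells at 9 h they were 0.40 and 0.26, where 1 of the 3 genes was below 0.

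The change from 0 h to 9 h was compared between lines as an interaction. Between knockout and P53 knockdown cells 28 of 47 genes differed, 6 higher and 22 lower in knockout cells, where 25.7% and 20.7% of all genes tested were, and quantile scaling gave 10 higher and 18 lower. Between combined-loss and knockout cells 28 differed, 21 higher and 7 lower in combined-loss cells, where 15.5% and 31.9% were, and quantile scaling moved the median of all genes by 0.24. Between combined-loss and P53 knockdown cells 18 differed, 12 higher and 6 lower, where 11.8% and 22.4% were, with 9 left without the first combined-loss library at 0 h. The lines share their own 0 h and 9 h libraries between these tests. Ccne1 had a difference of 1.42 ± 0.16, adjusted p = 1.19e-06 for combined-loss against knockout cells, and of -1.09 ± 0.16, adjusted p = 2.45e-05 for knockout against P53 knockdown cells. Mcm2 differed between combined-loss and both other lines (0.97 ± 0.14, adjusted p = 3.32e-05 against knockout and 0.99 ± 0.14, adjusted p = 5.37e-05 against P53 knockdown cells). For Pola1 the largest value was between knockout and P53 knockdown cells (1.92 ± 0.38, adjusted p = 0.000505). Since the 0 h libraries of knockout and P53 knockdown cells belong to another block than their 9 h libraries, these differences of change cannot be told apart from the blocks.

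WT cells were analysed here at 6 h and 9 h, and there 7 genes were higher and 1 lower at 9 h, where 7.61% and 4.48% of all genes tested were. Ccne2 went from 3.17 and 3.02 FPKM to 5.85 and 6.17 FPKM (0.77 ± 0.17, adjusted p = 0.00559) and Ccne1 from 47.9 and 49.3 FPKM to 88.7 and 74.7 FPKM (0.73 ± 0.11, adjusted p = 0.000306). Cdc45 (0.63 ± 0.13, adjusted p = 0.00465) and Slbp (0.60 ± 0.16, adjusted p = 0.022) were higher as well, and Lig1 was lower (-0.32 ± 0.09, adjusted p = 0.0211). Mcm2 (0.016), Pcna (0.39) and Cdc6 (0.34) did not pass, although Pcna passed with the replicate number as a block (adjusted p = 0.0408) and with quantile scaling (0.50, adjusted p = 4.87e-05). The 8 calls became 4 without the first and 5 without the second library at 6 h, 3 without the first and 4 without the second at 9 h, and 9 higher and 3 lower with quantile scaling. Ccne1 passed whichever single library was left out. Slbp (0.0716 to 0.158) and Lig1 (0.05 to 0.192) were lost without each, Ccne2 without the second at 6 h (0.0514) or 9 h (0.0532), and Cdc45 without the first at 9 h (0.0703).

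Against WT cells at the same time, more of these genes were lower than higher in either single loss. In knockout cells 6 were higher and 10 lower at 6 h, where 21.8% and 26.4% of all genes tested were, and 2 higher and 17 lower at 9 h, where 23.4% and 20.6% were. At 6 h in knockout cells all genes tested leaned lower too. There these genes were called less often than all genes tested in either direction. In P53 knockdown cells 4 were higher and 17 lower at 6 h, where 28.9% and 24.3% were, and 2 higher and 23 lower at 9 h, where 29.7% and 24.8% were. Both lines are set against the same WT libraries, and those libraries also differed in Eif2s3y and in fibroblast markers. E2f2 was at 8.72 and 7.83 FPKM in WT cells at 9 h, 2.05 and 1.64 FPKM in knockout cells (-1.71 ± 0.19, adjusted p = 6.08e-07) and 2.58 and 2.82 FPKM in P53 knockdown cells (-1.32 ± 0.19, adjusted p = 8.68e-06). Cdt1 was lower in both at 9 h (-0.60 and -0.65), as were Rfc5 (-0.64 and -0.56) and Mcm2 (-0.30 and -0.40). Rrm2 stood at 237 and 221 FPKM in WT, 169 and 178 FPKM in knockout and 123 and 119 FPKM in P53 knockdown cells (-0.92 ± 0.09, adjusted p = 4.91e-08). The 2 genes that were higher at 9 h were Rfc3 and Pold1 in both lines. Ccne1 was above WT at 6 h in knockout (0.62 ± 0.11, adjusted p = 0.000116) and P53 knockdown cells (0.66 ± 0.11, adjusted p = 5.28e-05) and below it at 9 h in knockout cells (-0.41 ± 0.11, adjusted p = 0.00568). The calls of Ccne1 (adjusted p = 0.102) and Mcm2 (0.242) in knockout cells at 9 h were lost without the first WT library, and that of Mcm2 also without either knockout library (0.101 and 0.0573). In P53 knockdown cells Mcm2 was lost without the first WT library (0.0577), Pold1 without the second (0.0862) and Rfc3 without the first P53 knockdown library (0.0537). The knockout count at 6 h was 10 without the first WT library, and at 9 h it was 12 without the first knockout and 10 without the first WT library.

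The combined loss was compared with each single loss at all 4 times, and the comparisons share the combined-loss libraries. The single-loss libraries at 0 h and 3 h belong to another block than those at 6 h and 9 h, so a difference between times in these comparisons cannot be told apart from the blocks. Against P53 knockdown cells 14 genes were higher and 12 lower at 0 h, where 21.2% and 23.7% of all genes tested were, 13 and 14 at 3 h (21.3% and 26.4%), 9 and 7 at 6 h (14.7% and 22.5%) and 17 and 10 at 9 h (14.9% and 33%). Against knockout cells 7 were higher and 23 lower at 0 h, where 31.4% and 23.9% were, 5 and 23 at 3 h (30.1% and 24.1%), 9 and 13 at 6 h (24.7% and 22.8%) and 16 and 12 at 9 h (20.5% and 32.5%). At 9 h quantile scaling moved the median of all genes by 0.17 and 0.13 in these comparisons. At 6 h against knockout cells it gave 7 higher and 17 lower.

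Cdc45 was higher in combined-loss than in P53 knockdown cells at all 4 times, by 1.10, 0.77, 0.70 and 0.75, and Cdt1 by 0.69, 0.65, 0.44 and 0.71. Tyms was lower than in either single loss at every time, for example at 13.9 and 12.4 FPKM against 28.7 and 27.6 FPKM in knockout (-1.04 ± 0.10, adjusted p = 3.47e-08) and 21.4 and 23.0 FPKM in P53 knockdown cells at 0 h (-0.71 ± 0.10, adjusted p = 8.76e-06). Ccne1 was lower than in P53 knockdown cells at all 4 times and lower than in knockout cells at 0 h (-1.63 ± 0.11, adjusted p = 6.62e-10), 3 h (-1.48 ± 0.11, adjusted p = 2.94e-09) and 6 h (-0.40 ± 0.11, adjusted p = 0.00629), with -0.21 at 9 h, called only with quantile scaling (-0.30, adjusted p = 0.00854). The 6 h calls of Ccne1 were lost without the first combined-loss library (adjusted p = 0.129 against knockout and 0.0925 against P53 knockdown cells) and, against knockout cells, without the first knockout library (0.0703), and that of Cdt1 at 6 h without the second combined-loss library (0.109). Among the MCM subunits Mcm2 was below both single losses at 0 h (-0.57 and -0.49) and above both at 9 h (0.39 and 0.49), all called, the value against knockout cells at 9 h no longer without the libraries labelled 10 uM (adjusted p = 0.0641). In combined-loss cells its own change from 0 h to 9 h did not pass, as given above, and the single-loss libraries of the 2 times lie in different blocks. The counts at 6 h and 9 h depended on single libraries: against P53 knockdown cells the 16 calls at 6 h became 9 without the second library of either line, and against knockout cells the 22 at 6 h became 14 without the second combined-loss or first knockout library and the 28 at 9 h became 18 without the second combined-loss or first knockout library.

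P53 peaks within 1 kb of the starts of these genes were found in treated and not in untreated cells. A site is a peak found in both libraries of a group within 1 kb of the start, and 38 of the 47 genes have a start in the RefSeq table. In untreated cells 0 of 38 had a P53 site in WT and 0 in knockdown cells, where 0.528% and 0.373% of tested genes with a start did. In treated cells 10 of 38 (26.3%) did in WT and 9 (23.7%) in knockdown cells, where 14.7% and 12.9% did. The 10 were Cdt1, Mcm2, Mcm5, Mcm7, Orc1, Orc6, Pcna, Rpa1, Rrm1 and Slbp, and the 9 were the same genes without Mcm2. The P53 lists differed in length. In WT cells untreated lists held 1378 and 1317 peaks and treated ones 6200 and 6528. In knockdown cells they held 982 and 1174 untreated and 5047 and 6240 treated. The part of list length in these shares was not tested. The Mcm2 peak lay 56 bases past the start, on chr6:88898409-88898724 of mm10, with the authors' fold enrichments of 6.08 and 6.02, where folds of the 10 genes ran from 5.4 to 8.29. The Pcna peak covered the start, on chr2:132252639-132253211 of mm10, with folds of 6.31 and 7.02. The site of Cdt1, on chr8:122566734-122568000 of mm10, ended 15 bases before the start and had folds of 8.29 and 8.21. Over the whole gene and 5 kb on either side 18 of 47 genes had a P53 site in treated WT cells and 1 in untreated ones, where 24% and 1.64% of tested genes did, a choice made after the data were seen. Of the 10 genes, Mcm2, Cdt1, Mcm5, Mcm7, Orc1 and Pcna were higher in treated WT cells of the first set and Rpa1 was lower. Of all 47 genes 26 were higher and 9 lower there, and of all genes tested 39.3% and 37.6%. A link between a P53 site and the change in level was not tested.

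KLF4 peaks lay at most starts in untreated cells, and fewer were left in treated WT cells. The share of the 38 genes with a KLF4 site was 84.2% (32 genes) in untreated WT cells, where 78.8% of tested genes had one, and 47.4% (18 genes) in treated WT cells, where 30.4% had one. In knockout cells it was 84.2% (32) untreated and 73.7% (28) treated, where 70.3% and 66.2% of tested genes had one. In cells with full-length Lnc956 given back it was 89.5% (34) and 55.3% (21), where 73.8% and 54.8% had one, and in cells given the form with the deletion 89.5% (34) and 84.2% (32), where 74.3% and 70.3% had one. The lists differed in length: treated WT lists held 6943 and 5691 peaks and untreated ones 30590 and 27294, and the part of list length in these shares was not tested.

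**Figure D5:**
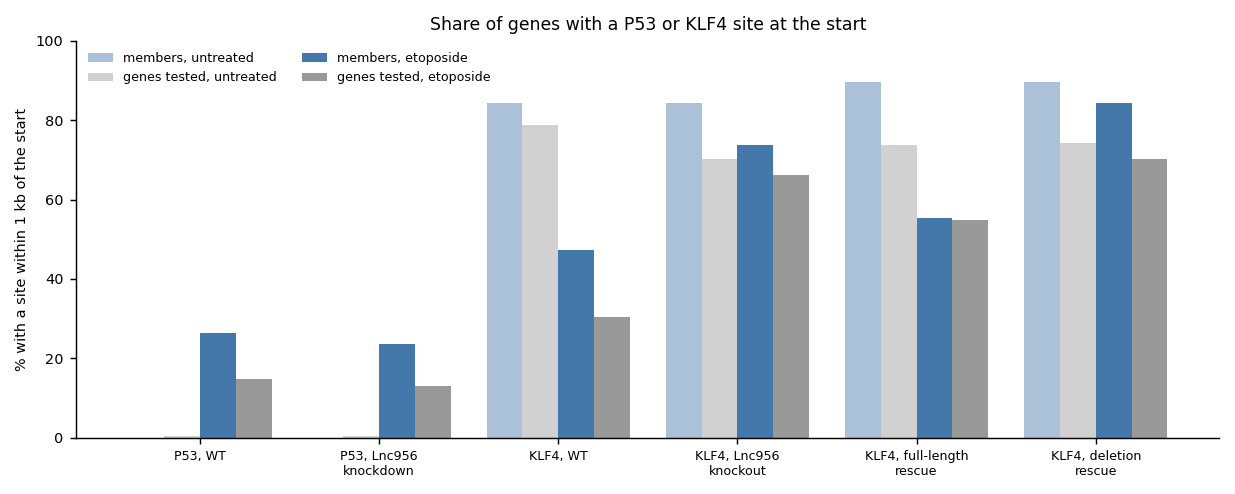
Percent of the 38 genes with a start in the table, and of the 9664 tested genes with a start, that had a site in both libraries within 1 kb of the start, for 12 ChIP groups. P53 sites are at 0% of the 38 genes in untreated groups and at 26.3% and 23.7% in treated ones, and KLF4 sites at 84.2% in untreated and 47.4% in treated WT cells.

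Ccne1 had the highest KLF4 folds of the 38 genes in untreated WT cells, and Orc6 followed with 45.5 and 43.2. Its site covered the start, on chr7:38106576-38108527 of mm10 in untreated WT cells, with the authors' folds of 50.8 and 52.7 there and 21.0 and 17.5 in treated WT cells. In knockout cells the folds were 53.1 and 45.9 untreated and 45.9 and 44.1 treated. With full-length Lnc956 they were 62.5 and 63.0, then 40.5 and 38.6, and with the deleted form 59.9 and 59.0, then 51.1 and 49.1. Pcna had folds of 30.8 and 28.3 in untreated and 10.2 and 10.6 in treated WT cells, Slbp 37.9 and 37.7 and then 16.3 and 16.8, and Mcm2 23.7 and 16.2 and then 13.2 and 13. Cdc6 had a site in untreated WT cells (17.7 and 15.5) and none in treated WT cells. A fold is the authors' value within its own list, so these pairs are given side by side and no change was tested.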

How the data were processed

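RNA-seq levels and ChIP-seq peak lists of mouse ES cells were analysed. The deposited expression values are FPKM per gene, made by the authors with TopHat2 2.0.8 and Cufflinks and Cuffdiff 2.1.1 on mm10, per the submitters' processing notes. The sources used here do not give how libraries were scaled, no counts were analysed here, and the depth is unknown. The peak lists were made with Bowtie2 2.1.0 and MACS2 2.2.7.1, per the submitters' processing notes. Their fold enrichment (a ratio) and −log10 p and q values are the authors' deposited values, given for each library, and the cutoffs are not stated there. Of the time-course columns, 4 named for WT cells at 0 h and 3 h matched no labelled sample and were not used. In the first set, 140 of 280 repeated symbols had rows that differed and were left out.

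Values were taken as log2(FPKM + 1), with a pseudocount of 1. Genes at 1 FPKM or more in at least 2 libraries were tested in limma 3.58.1 (R 4.3.3) with a mean trend, with all groups of a table in 1 fit, Benjamini-Hochberg adjustment over all genes tested and a threshold of 0.05. Peaks were matched to starts with bedtools 2.31.1 at a distance of 1 kb, and python 3.11.15 was used for the rest. Named genes were Mcm2, Ccne1, Pcna, Cdc6 and Slbp and, for each comparison, up to 3 members in either direction with the largest called differences and no overlap between the groups' libraries. Others given as examples of a role were chosen after their values were seen. The comparisons of 9 h with 6 h in the altered lines were added after the data were seen. The members and the lists were chosen with earlier results of these data known. The alternatives were a pseudocount of 0.1, no filter, quantile scaling, the replicate number as a block, only the groups compared, no libraries labelled 10 uM, each library left out in turn and, for peaks, other windows and a −log10 q of 5.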

Additional observations from a re-analysis of the deposited data

Results flagged for a closer look

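The change under etoposide differed between cell groups in 4 interaction tests in limma, each over all genes tested. Between knockdown and WT cells of the first set 14 of the 47 genes differed, 5 higher and 9 lower in knockdown cells, where 13.6% and 19.5% of all genes tested were higher and lower. In neither direction were the 47 called more often than all genes tested. Pola1 (0.53), Cdc45 (0.51) and Ccne1 (0.48) were higher in knockdown cells, and Tyms (-0.51), Rfc3 (-0.34) and Pole (-0.32) were lower.

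In the time course 28 genes differed between knockout and P53 knockdown cells from 0 h to 9 h, where 25.7% and 20.7% of all genes were higher and lower, with Pola1 (1.92), Rfc1 (1.71) and Ccne2 (1.44) higher in knockout cells and Chaf1b (-1.16), Ccne1 (-1.09) and Rpa2 (-0.96) lower. Between combined-loss and knockout cells 28 differed, where 15.5% and 31.9% of all genes were higher and lower, with Ccne1 (1.42), Rpa1 (1.32) and Mcm6 (1.03) higher in combined-loss cells and Rfc1 (-1.13), Ccne2 (-0.77) and Gins3 (-0.59) lower. Between combined-loss and P53 knockdown cells 18 differed, where 11.8% and 22.4% of all genes were higher and lower, with Pola1 (1.19), Orc2 (1.03) and Mcm2 (0.99) higher in combined-loss cells and Tk1 (-0.61), Pold1 (-0.56) and Rrm2 (-0.48) lower. All values are differences of log2 change. The 0 h libraries of knockout and P53 knockdown cells belong to another block than their 9 h libraries. Each of these time-course comparisons includes at least 1 of those lines, so its differences cannot be told apart from the blocks.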

How the results depend on the processing

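Of the recomputed counts of called genes 264 stayed within 1.5 times the value reported and 68 did not. Without the filter on low values, knockdown against WT cells untreated had 7 calls, and a pseudocount of 0.1 gave 2 for P53 knockdown cells at 3 h. Quantile scaling gave 6 for those cells, 2 for combined-loss cells at 6 h, 7 at 9 h and 12 for P53 knockdown cells from 6 h to 9 h. It turned the sign of Pcna in knockout cells at 6 h (0.19) and 9 h (0.21) and in combined-loss cells at 3 h against P53 knockdown (-0.22) and knockout cells (0.22).

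Without the libraries labelled 10 uM the counts were 11 for P53 knockdown against WT cells at 6 h, 0 for combined-loss cells at 9 h, 9 for combined-loss against P53 knockdown cells at 6 h, 8 and 15 against knockout cells at 6 h and 9 h, 9 for the interaction of combined-loss and P53 knockdown cells, and 4, 0 and 1 from 6 h to 9 h in knockout, P53 knockdown and combined-loss cells. With only the groups compared they were 0 for P53 knockdown cells at 3 h and combined-loss cells at 6 h and 9 h, 11, 13 and 3 for combined-loss against P53 knockdown cells at 0 h, 3 h and 6 h, 3 against knockout cells at 6 h, 11 for that interaction, and 8, 7 and 0 from 6 h to 9 h in the same order.

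Leaving out 1 library gave ranges of 3 to 9 for knockdown against WT cells untreated, 8 to 13 for the knockdown interaction, 0 to 4 for P53 knockdown cells at 3 h, 0 to 3 and 1 to 4 for combined-loss cells at 6 h and 9 h, 10 to 13 and 10 to 18 for knockout against WT cells at 6 h and 9 h, 9 to 19 for combined-loss against P53 knockdown cells at 6 h, 14 to 18 and 18 to 21 against knockout cells at 6 h and 9 h, and 9 to 18 for the interaction of combined-loss and P53 knockdown cells. From 6 h to 9 h the ranges were 3 to 5 in WT, 6 to 8 in knockout, 0 to 1 in P53 knockdown and 2 to 8 in combined-loss cells. With 1 library left in a group, that library was taken to vary like the other groups. With a window of the whole gene and 5 kb on each side, chosen after the data were seen, 1 of 47 genes had a P53 site in untreated and 18 in treated WT cells, where 1.64% and 24% of tested genes did. The cause of these shifts was not tested.

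Replicate numbers were shared by the groups. Deviations of same-numbered libraries correlated at -0.16 to 0.09 over 6 group pairs of the first set and at -0.55 to 0.51 over 91 of the time course, with 18 of the 91 over 0.1 and 22 under -0.1. The labels do not tie the numbers to a shared culture or day, and the numbers were not taken to pair the libraries. The block fitted over a whole table took the 12 calls of knockdown against WT cells untreated to 7, and no other count moved by over 1.5 times. From 0 h to 3 h the correlation was 0.51 in P53 knockdown, 0.064 in knockout and -0.23 in combined-loss cells, and a replicate block within each line, added after the data were seen, gave 4, 0 and 0 calls. With 2 libraries a group and no depth, the precision of low FPKM values is unknown.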
